A study of Mus musculus with 24 samples.

Results

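The female and male pituitary were compared in the 12 of the 24 mouse libraries that carried Cre recombinase, 6 from females against 6 from males, over the genes of chromosomes 1 to 19. The libraries were chosen by their labels: 3 libraries of each sex were Cre control (Cre with unfloxed Egr1) and 3 of each sex were Egr1cKO (Cre with floxed Egr1, the conditional knockout of the immediate early transcription factor Egr1), and this genotype was a block in the main pooled fit. The other 12 libraries, without Cre, were wild type and Egr1cKO control (floxed Egr1 without Cre), again 3 of each sex. The labels give the tissue as pituitary and the cells as endocrine. The labels leave out the Cre driver, the exon meant to be removed and the ages of the animals, and all 12 libraries compared share Cre, so a sex difference in them is one measured in its presence. The labels do not say that each library came from a separate animal, so every p-value measures the spread between these samples only. Egr1 itself was detected in all 12: it measured 25.3 to 486 CPM in male and 61.7 to 486 CPM in female Cre control libraries, and 58.3 to 238 and 7.55 to 162 CPM in male and female Egr1cKO libraries.

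The anterior pituitary is built from endocrine cell types that each release their own hormone: lactotropes release prolactin, somatotropes growth hormone, gonadotropes follicle-stimulating and luteinizing hormone, thyrotropes thyrotropin, and corticotropes adrenocorticotropin cut from proopiomelanocortin. Several of these cells respond to gonadal steroids, both directly through their own steroid receptors and through hypothalamic releasing hormones, and the female gland is known for its larger output of prolactin and the male gland for its higher follicle-stimulating hormone subunit message. A homogenised gland also holds stem and folliculostellate cells, vessels, leukocytes and, where it is not dissected away, the posterior lobe with its vasopressin and oxytocin axons. In such bulk samples fewer cells of a type and less RNA per cell cannot be told apart.

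Before any gene is considered, female and male libraries with Cre differed as a whole. Counts on the mitochondrial chromosome made up 7.75% ± 1.95 (SD, n = 6) of all counts in females and 2.92% ± 0.674 (SD, n = 6) in males, with ranges of 5.52% to 10.4% and 2.08% to 3.79% that did not overlap. The difference of 4.83 percentage points had an exact permutation p = 0.005 (two-sided, sexes permuted within genotype), which is the smallest p these samples allow. Genes detected at equal depth numbered 20145 ± 1235 (SD, n = 6) in females and 24365 ± 1461 (SD, n = 6) in males, an exact permutation p = 0.01. Total counts, 15486069 to 25511146 per library, did not separate the sexes (exact permutation p = 0.74). Without Cre the mitochondrial share was 1.72 percentage points higher in females with overlapping values (exact permutation p = 0.26). Because no female library with Cre had a share as low as any male library, sex and mitochondrial share cannot be told apart among these 12 libraries, and counts from a fit that holds the share are given with most gene lists. Xist and Y-linked counts matched the sex label in 12 of 12 libraries.

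**Figure D1:**
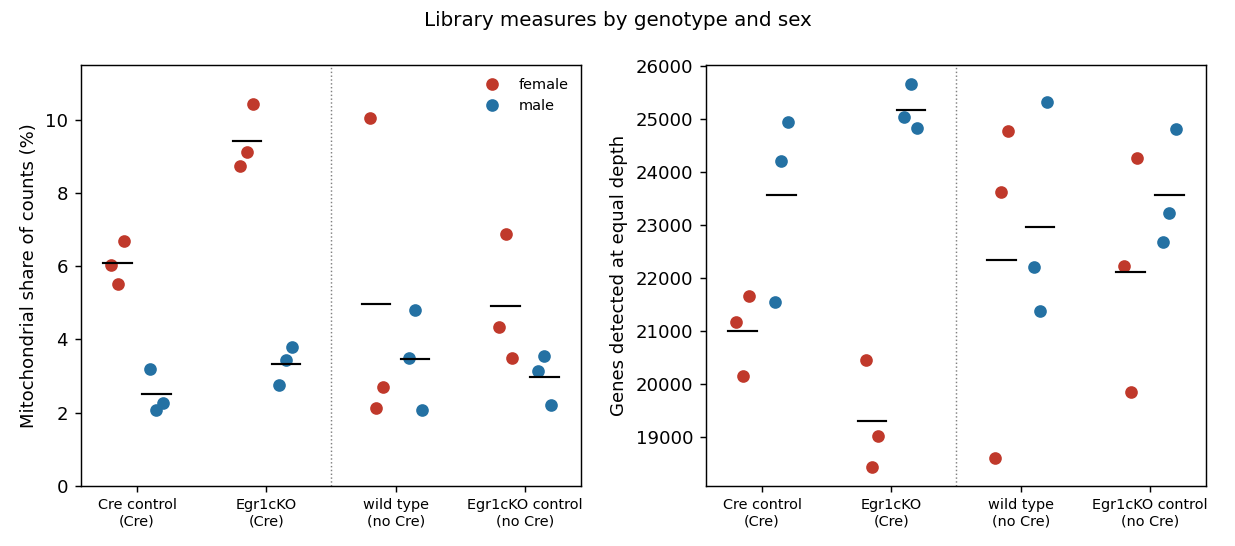
Mitochondrial share of counts in percent (left) and genes detected at equal depth (right) in each library, by genotype, with females in red, males in blue and the mean of each 3 libraries as a line. The 6 female libraries with Cre lie between 5.52% and 10.4%, above all 6 male libraries with Cre, and female wild type library 1 stands at 10.1%.

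The sex difference with Cre was broad. Of 19425 autosomal genes tested, 6156 passed an adjusted p of 0.05 (edgeR quasi-likelihood test, Benjamini-Hochberg over all genes), which is 31.7%. In females 2828 were higher (14.6%) and 3328 were lower (17.1%), and 783 of the higher and 1015 of the lower genes differed at least 2-fold. A stricter description, that the 6 female and the 6 male CPM values did not overlap at all, held for 3102 genes (16.0%). CPM here means the normalised read count on library totals scaled by TMM, a method that assumes most genes do not differ, and fold changes are log2 values of female over male. The split of the calls rested on that scaling: on plain library totals 1555 genes were higher and 5019 lower, and the median log2 fold change of all autosomal genes moved from -0.06 to -0.28. The difference also ran along gene properties. Its median went from 0.12 in the fifth of protein-coding genes with the shortest transcripts to -0.17 in the fifth with the longest, and from -0.17 at the lowest GC content to 0.16 at the highest.

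Each genotype showed the difference. Within Cre control 2850 genes passed (14.7%) and within Egr1cKO 4307 passed (22.2%). These comparisons contrast different libraries, but they came from a joint fit with shared filtering, scaling and variance estimates, so they are not independent. Fits on only the 6 libraries of the genotype called 2930 genes in Cre control and 3527 in Egr1cKO. With the mitochondrial share held, 7 and 15 genes passed. In the joint fit without the share, the genotypes had 2026 called genes in common. These were 71.1% of the Cre control calls and 47.0% of the Egr1cKO calls, and 2025 of them had the same sign. Across all 19425 genes, which are not independent replicates, the log2 fold changes of the genotypes had a Pearson r of 0.45 and a Spearman rho of 0.58. The Cre control count was sensitive to single libraries: it was 1427 without female replicate 1, 1665 without male replicate 2, 1684 without male replicate 3 and 1785 without female replicate 3, against up to 3085 without male replicate 1. The Egr1cKO count was 2346 without male replicate 1 and to 2540 without male replicate 2.

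The genes with the smallest p in each direction were Crhbp and Ptpn5, higher in females, and Scg2 and Serpine2, lower in females. Crhbp (ENSMUSG00000021680, GRCm38 chr13:95431371-95444924) encodes a secreted protein that binds corticotropin-releasing hormone, and Ptpn5 (ENSMUSG00000030854, chr7:47077795-47133684) a tyrosine phosphatase known from neurons. Scg2 (ENSMUSG00000050711, chr1:79434669-79440120) encodes secretogranin II, a protein of hormone secretory granules, and Serpine2 (ENSMUSG00000026249, chr1:79794197-79861180) a secreted serine protease inhibitor. Their promoter windows, 250 bases before to 50 after the RefSeq start site, are shown to set the sequences of the strongest differences side by side. They come from RefSeq (GRCm38.p6) and read 5′ to 3′ on the minus strand, the strand of all 4 genes. Capitals mark matches, on either strand, to the estrogen receptor half-site AGGTCA, the androgen and glucocorticoid receptor half-site AGAACA, the TATA box TATAAA or the EGR1 site GCGTGGGCG. The windows are chr13:95444782-95445081 for Crhbp, chr7:47133635-47133934 for Ptpn5 (the first of 2 listed for it), chr1:79439977-79440276 for Scg2 and chr1:79858616-79858915 for Serpine2.
Crhbp: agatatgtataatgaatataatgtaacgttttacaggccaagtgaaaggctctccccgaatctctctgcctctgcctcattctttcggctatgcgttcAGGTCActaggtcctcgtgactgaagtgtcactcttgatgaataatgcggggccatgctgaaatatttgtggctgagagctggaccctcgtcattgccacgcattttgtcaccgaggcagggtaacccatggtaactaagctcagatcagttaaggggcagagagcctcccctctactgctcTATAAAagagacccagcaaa
Ptpn5: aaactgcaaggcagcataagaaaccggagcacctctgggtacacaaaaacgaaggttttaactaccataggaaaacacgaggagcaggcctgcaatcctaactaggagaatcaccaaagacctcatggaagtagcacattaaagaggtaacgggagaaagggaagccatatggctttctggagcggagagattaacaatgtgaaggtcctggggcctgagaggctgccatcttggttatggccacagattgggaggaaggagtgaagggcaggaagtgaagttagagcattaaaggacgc
Scg2: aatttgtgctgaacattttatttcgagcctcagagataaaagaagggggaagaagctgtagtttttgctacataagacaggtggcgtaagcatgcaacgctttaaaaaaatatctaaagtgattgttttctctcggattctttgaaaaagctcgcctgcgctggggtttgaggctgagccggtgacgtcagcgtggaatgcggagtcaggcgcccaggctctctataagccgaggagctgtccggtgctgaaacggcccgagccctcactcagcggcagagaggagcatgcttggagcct
Serpine2: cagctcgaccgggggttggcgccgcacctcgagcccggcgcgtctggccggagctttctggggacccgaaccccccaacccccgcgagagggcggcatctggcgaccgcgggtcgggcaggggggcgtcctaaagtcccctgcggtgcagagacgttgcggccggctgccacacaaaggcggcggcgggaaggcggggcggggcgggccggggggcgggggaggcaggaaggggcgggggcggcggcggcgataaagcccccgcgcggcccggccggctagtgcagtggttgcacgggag
Crhbp held AGGTCA, its first base 152 bases before the start site (position -152), and TATAAA from position 31 after it. The other windows held none of these 4 strings, which says only that these letters are absent there. Among 31396 autosomal promoter windows of the same length, 16.3% held AGGTCA, 19% AGAACA, 13.6% TATAAA and 0.605% GCGTGGGCG. A match is a description of letters, not of a bound site.

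Crhbp was close to an all-or-none difference. The female libraries measured 60 CPM at the lowest, 107 at the median and 166 at the highest, while the male libraries measured 0, 0.0192 and 0.0449 CPM. In all, 13053 counts came from the 6 female and 3 from the 6 male libraries, a ratio of 4930.0 on the scaled totals with a 95% interval of 1687 to 23909 that covers counting error only (adjusted p = 3.82e-16). Ptpn5 ranged from 31.5 through a median of 45.6 to 52.8 CPM in females and from 0 through 0.184 to 0.751 CPM in males. Its log2 fold change was 7.44 (SE 0.34, adjusted p = 2.36e-11), and the sexes did not overlap. Scg2 went the other way, at 332, 383 and 448 CPM in females (lowest, median, highest) and 1876, 3587 and 4049.7 CPM in males, a log2 fold change of -3.13 (SE 0.16, adjusted p = 1.9e-11). Every female library with Cre lay below every male one. Serpine2 measured 16.8, 22.4 and 38 CPM in females and 92.2, 120 and 129 CPM in males, a log2 fold change of -2.23 (SE 0.15, adjusted p = 1.62e-09).

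Further genes higher in females included channels, receptors and signalling enzymes. Scn11a, a voltage-gated sodium channel of sensory neurons, measured 26.8 to 36.1 CPM in females against 2.75 to 4.89 CPM in males (log2 fold change 3.0, SE 0.18, adjusted p = 1.97e-10). Cacna1g, a T-type calcium channel, measured 53.9 to 108 against 9.17 to 14.4 CPM (2.77, SE 0.17). Rxfp1, the relaxin receptor, had a female median of 173 CPM and a male median of 2.48 CPM (5.69, SE 0.69). Adcy8, a calcium-stimulated adenylyl cyclase, measured 9.08 to 19.2 CPM in females and 0.25 to 0.988 CPM in males (4.59, SE 0.35). Aebp1, which encodes a secreted collagen-binding protein, measured 105 to 237 CPM in females and 15.5 to 31.3 CPM in males (3.03, SE 0.17, adjusted p = 2.8e-10). The remaining genes among the 10 with the largest differences were scarce, with female medians between 1.19 CPM for Umod and 5.41 CPM for Tcp10a and male medians of at most 0.115 CPM: they were Wdr64, Tcp10a, Umod, Ucp1, Kcnq5 and the cadherin Cdh20. All 10 kept their call when any 1 library was left out.

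The genes with the largest differences toward males were mostly near the floor of detection in females. Chrna7, the alpha7 nicotinic receptor subunit, had 0 counts in the 6 female libraries and 143 in the males, at least 42.1-fold lower in females when set against 3 counts over the group (adjusted p = 0.000794). Cntnap4, a neuronal adhesion protein, measured 8.36 to 14.6 CPM in males and at most 0.798 CPM in females, with 13 female counts in all. The orphan receptor gene Gpr139 measured 2.8 to 4.7 CPM in males and at most 0.251 CPM in females. Grem1, an extracellular inhibitor of BMP signalling, measured 21.7 to 43.1 CPM in males and 0 to 1.13 CPM in females, a log2 fold change of -5.69 (SE 0.44, adjusted p = 4.9e-07). Drd4, a dopamine receptor, measured 1.76 to 7.41 CPM in males against a female maximum of 0.586 CPM. Serpina3c, Mmp20, Ptx4, Loxhd1 and the cadherin Cdh12 completed the list of 10. Genes were named here only if the sexes did not overlap, so that separation was fixed by their choice. At higher levels Ctnnb1, which encodes beta-catenin, measured 66.7 to 87.2 CPM in females and 163 to 312 CPM in males (log2 fold change -1.75, SE 0.14), and the chromatin protein gene Morf4l1 73.7 to 102 against 197 to 277 CPM (-1.48, SE 0.11). Ctnnb1 overlaps Ulk4 on the other strand, and these unstranded libraries cannot separate their reads.

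Hormone genes differed in both directions. Prl, the prolactin gene (chr13:27057570-27065205), measured 20819 CPM at the lowest, 53385 at the median and 75588 at the highest in females and 3046, 4027 and 7057 CPM in males. The groups did not overlap, and the log2 fold change was 3.48 (SE 0.29, adjusted p = 1.29e-07), with 4.17 in Cre control and 2.80 in Egr1cKO. Fshb, the follicle-stimulating hormone beta subunit (chr2:107056140-107059656), measured 35.6, 56.5 and 111 CPM in females and 826, 927 and 1775 CPM in males (-3.95, SE 0.32, adjusted p = 2.72e-06), again with no overlap. Tshb, the thyrotropin beta subunit, was lower in females (-1.07, SE 0.21, adjusted p = 0.000655) at 215 to 674 CPM against 599.6 to 1109 CPM, values that overlapped, and its reads may include those of the overlapping gene Tspan2. Cga, the shared alpha subunit, had a log2 fold change of -0.81 (SE 0.25, adjusted p = 0.0225). That call was lost in 5 of the 12 fits without 1 library: without male Egr1cKO replicate 3, without each of the 3 female Egr1cKO libraries and without male Cre control replicate 1, the last giving -0.71 and an edgeR adjusted p of 0.0974. Pomc, the precursor of adrenocorticotropin and melanotropin, measured 50633 to 224382 CPM in females and 29993 to 111102 CPM in males (1.02, SE 0.30, adjusted p = 0.0143), but not past the threshold without male Cre control replicate 2 (0.96, edgeR adjusted p = 0.0694) or with DESeq2 (adjusted p = 0.174). Gh, the growth hormone gene, did not pass (-0.34, SE 0.24, adjusted p = 0.3), with 0.30 in Cre control, where it did not pass, and -0.98 in Egr1cKO, where it did (SE 0.25, edgeR adjusted p = 0.00827). In the pooled fit it passed without male Cre control replicate 3 (-0.55, edgeR adjusted p = 0.0479) and on plain library totals (-0.56, adjusted p = 0.0441).

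**Figure D2:**
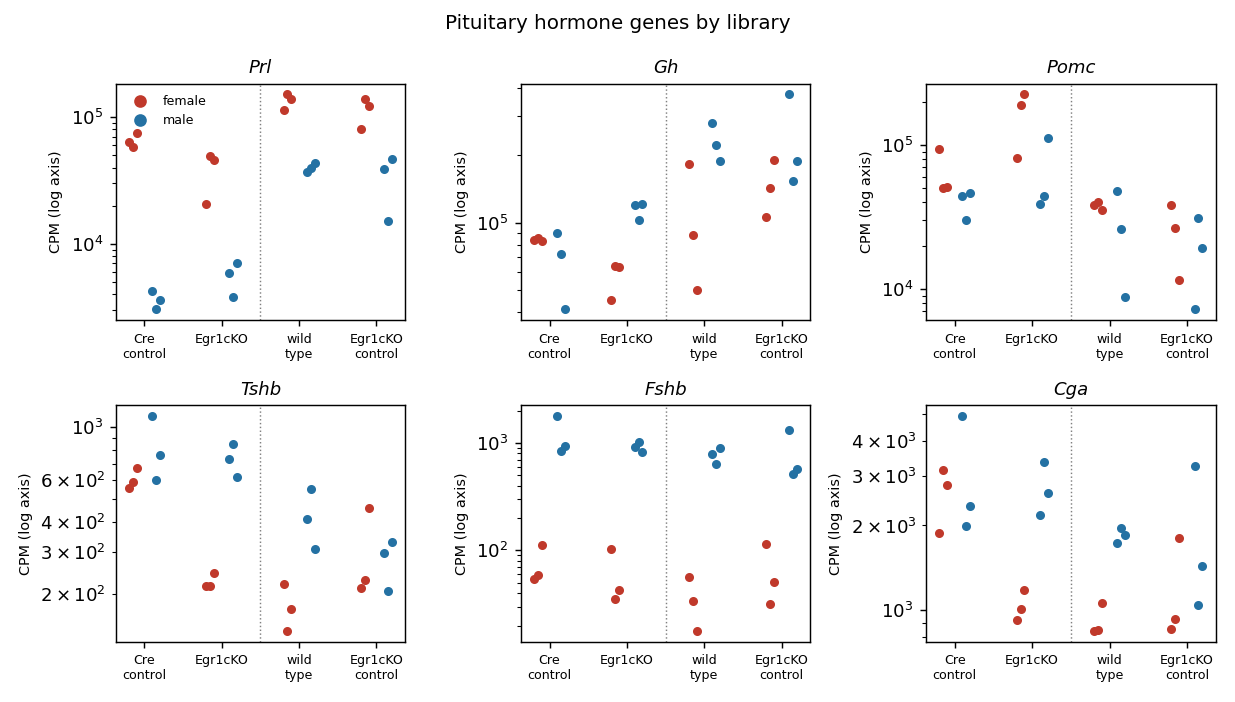
CPM of 6 pituitary hormone genes in each of the 24 libraries on a log axis, by genotype, females in red and males in blue, with Cre left of the dotted line. Prl and Fshb separate the sexes in all 4 genotypes, whereas Gh, Pomc, Tshb and Cga overlap among the libraries with Cre.

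The counts of list members below stand against 14.6% of all autosomal genes called higher and 17.1% called lower, and no share of a list was tested against these. A fit over all 24 libraries that holds the mitochondrial share is given with most of them. It is not given with the MHC class II, collagen, steroid metabolism, earlier dimorphic, immediate early, cell cycle, mitochondrially encoded and endoplasmic reticulum lists. Named genes that changed sign in it are listed at the end. This fit takes the effect of the share from variation within groups. That variation was widest in female wild type, at 2.14% to 10.1%. Holding the share among the 12 libraries left 1 member of the autosomal lists called, Ptpn5. Of 11 gonadotrope genes 5 were lower in females, 1 was higher and 5 did not pass, and their median log2 fold change was -0.35 against -0.06 for all autosomal genes. Gnrhr, the receptor for gonadotropin-releasing hormone, measured 12.9 to 33.8 CPM in females and 41.6 to 97.4 CPM in males (-1.85, SE 0.22, adjusted p = 9.15e-06), but stood at 0.28 (SE 0.40) in the 24-library fit. Inhbb, the inhibin and activin beta B subunit, measured 15.9 to 29.1 against 30.9 to 50.6 CPM (-1.12, SE 0.16), and Gata2, a transcription factor of gonadotropes and thyrotropes, 17.3 to 24.3 against 51.6 to 77.9 CPM (-1.61, SE 0.13). In the 24-library fit Inhbb, Fshb and Gata2 were lower and Nhlh2 higher. The single higher gonadotrope gene was the transcription factor gene Nhlh2, named after its value was seen, at 17.6 to 37.1 CPM in females and 0.996 to 7.91 CPM in males (2.59, SE 0.37). Of 7 thyrotrope genes 5 were lower and none was higher (median -0.95), among them the thyrotropin-releasing hormone receptor Trhr (-1.53, SE 0.23) and the deiodinase Dio2 (-0.95, SE 0.18). Tshb and Gata2 were called in the 24-library fit, and Dio2 stood at 0.34 (SE 0.24). Tshb, Cga and Gata2 also stand in this list, so it is not separate from the gonadotrope one.

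Of 6 lactotrope genes Prl was higher and 3 were lower: Esr1, the estrogen receptor alpha (-1.10, SE 0.13), the vessel growth factor Angpt1 (-1.49, SE 0.20) and Pou1f1, the transcription factor of lactotropes, somatotropes and thyrotropes (-0.96, SE 0.24). Of 6 somatotrope genes Neurod4 was higher (0.74, SE 0.19) and 3 were lower, Pou1f1, the protease gene Pappa2 (-2.20, SE 0.29) and Dlk1 (-0.81, SE 0.16). The call of Neurod4 was lost on plain library totals (0.51, adjusted p = 0.0662). Prl and Neurod4 were the members of these lists called in the 24-library fit. Among 9 corticotrope and melanotrope genes 5 were higher, 3 were lower and the median was 0.50. In the 24-library fit none was higher and 2 were lower, the receptor genes Avpr1b and Crhr1, which were lower in the main fit too. Holding the share among the 12 libraries put Tbx19 at -0.03 and Pcsk2 at -0.42. In the main fit, higher were the transcription factors Tbx19 (0.66, SE 0.17) and Neurod1 (0.76, SE 0.17) and the prohormone convertase Pcsk2 (0.96, SE 0.23), which cuts proopiomelanocortin into melanotropin. The other convertase gene, Pcsk1, was lower without overlap, 43.2 to 114 CPM in females and 204 to 354 CPM in males (-1.68, SE 0.22, adjusted p = 3.4e-05).

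Of 10 posterior lobe genes 5 were higher in females, none was called lower and 5 did not pass, 2 of the 10 having negative values. None was called in either fit that holds the share, and Avp stood at -0.36 among the 12 libraries and -0.20 over 24. The summed level of the list was 423 to 674 CPM in females and 201 to 372 CPM in males, with no overlap and no member at 0 in all libraries. Oxt, the oxytocin precursor, measured 97.7, 120 and 173 CPM in females (lowest, median, highest) and 26.3, 39.7 and 58.6 CPM in males (1.64, SE 0.15, adjusted p = 1.77e-07). Avp, the vasopressin precursor, measured 16.6 to 45.3 against 6.93 to 17.6 CPM (1.21, SE 0.21). Nkx2-1 (1.01, SE 0.24) and Rax (1.14, SE 0.20), transcription factors of pituicytes, were higher as well. Melanotropes lie beside the posterior lobe, and the part that the amount of this tissue in each library plays in the levels of Pomc and Pcsk2 was not tested.

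Of 12 stem and folliculostellate genes 3 were lower in females, Aldh1a2, an enzyme of retinoic acid synthesis (-1.09, SE 0.19), Aldoc (-0.67, SE 0.14) and Sox9 (-0.52, SE 0.16), and none was higher, with summed levels of 664 to 818 CPM in females and 688 to 926 CPM in males. Aldh1a2 was called in the 24-library fit and Sox9 stood at 0.71 (SE 0.30), while among the 12 libraries with the share held Aldh1a2 stood at 0.06. Of 13 endothelial and mural genes 5 were lower and 1 higher, with summed levels of 268 to 310 and 290 to 509 CPM. Kdr, the main receptor for vascular endothelial growth factor, measured 15.7 to 27.6 CPM in females and 31 to 67.4 CPM in males (-1.17, SE 0.18, adjusted p = 4.3e-05), while Egfl7 was higher (0.61, SE 0.18), though not on plain library totals (0.40, adjusted p = 0.134). Reads of Egfl7 may include those of Agpat2, which overlaps it on the other strand. Over the libraries with Cre, Agpat2 had 3071 counts and Egfl7 4034. Of all autosomal genes 31.7% were called, against 3 of these 12 stem and folliculostellate, 6 of 13 endothelial and mural and 3 of 14 leukocyte genes. None of the endothelial, mural or leukocyte genes was called in the 24-library fit. Of 14 leukocyte genes 1 was higher and 2 were lower, and of 8 MHC class II genes none passed at an adjusted p of 0.05 (edgeR), nor at an unadjusted p under 0.05. The higher leukocyte gene, Cd68, a macrophage lysosomal protein gene (0.75, SE 0.21), did not pass on plain library totals (0.55, adjusted p = 0.079). Summed leukocyte levels were 167 to 264 CPM in females and 150 to 206 CPM in males. Collagen genes passed in 5 of 13, 4 of them higher, such as Col1a2 at 184 to 316 CPM in females and 105 to 147 CPM in males (0.87, SE 0.13, adjusted p = 4.36e-05), but on plain library totals 2 were higher and 2 lower and the median went from 0.18 to -0.05.

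Of 6 autosomal steroid receptor genes, Esr1, Nr3c1 and Nr3c2 were lower in females and Pgr was higher, against 17.1% lower and 14.6% higher of all genes. In the 24-library fit that holds the share Pgr was higher and none was called lower. Esr1 measured 47.2, 62.7 and 82.2 CPM in females (lowest, median, highest) and 100, 131 and 163 CPM in males, without overlap (adjusted p = 4.14e-06). Nr3c1, the glucocorticoid receptor, measured 32.5 to 42.2 against 64.8 to 150 CPM (-1.39, SE 0.15), and Nr3c2, the mineralocorticoid receptor, 9.23 to 15.9 against 25.7 to 55 CPM (-1.72, SE 0.19). Pgr, the progesterone receptor, had a log2 fold change of 0.59 (SE 0.20, adjusted p = 0.0285) and lost its call without 1 of 5 libraries (female Cre control replicates 1 and 3, female Egr1cKO replicate 3, male Cre control replicate 1 and male Egr1cKO replicate 3). Its values there were between 0.44 and 0.59, with an edgeR adjusted p of up to 0.102, and on plain library totals it was 0.35.

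Of 11 genes known to be induced by estrogen 4 were higher in females, 2 were lower and 5 did not pass, against 14.6% higher and 17.1% lower of all genes. In the 24-library fit with the share the same 4, Prl, Pgr, Greb1 and Myc, were higher and none was called lower. Greb1, a cofactor of the estrogen receptor, measured 132, 148 and 239 CPM in females and 23.2, 32.1 and 35.2 CPM in males (2.39, SE 0.15, adjusted p = 4.32e-10). Myc, a growth-promoting transcription factor, measured 28.8 to 52.9 against 8.51 to 20.5 CPM (1.74, SE 0.21). Prl and Pgr were the other 2 higher genes. Ccnd1, which encodes cyclin D1 and overlaps the gene LTO1, was lower (-1.73, SE 0.28), at 13.5 to 28.3 against 27.7 to 93 CPM. Of 11 steroid metabolism genes tested 6 were lower and 1 was higher, Akr1c14, a hydroxysteroid dehydrogenase (1.56, SE 0.19), at 45.5 to 123 CPM in females and 17.6 to 32.6 CPM in males. Among the lower were Hsd17b4, at 23.57 to 31.32 against 39.44 to 55.65 CPM, and Hsd17b12, at 36.43 to 53.02 against 59.46 to 74.1 CPM.

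In the growth hormone and prolactin axis 4 of 17 genes were higher in females and 8 were lower, against 14.6% and 17.1% of all genes. Stat5a and Prl were higher in the 24-library fit with the share, and none was called lower. Igf1, the growth factor gene driven by growth hormone in many tissues, measured 12.5 to 29.6 CPM in females and 5.2 to 9.62 CPM in males (1.39, SE 0.21). Stat5a, the transcription factor that the prolactin receptor activates, measured 33.3 to 68.8 against 19.1 to 27.9 CPM (1.29, SE 0.15), though its span overlaps that of Stat3. Ghsr, the ghrelin receptor, was scarce in females, 0 to 0.982 CPM against 2.56 to 6.02 CPM in males (-3.61, SE 0.62, adjusted p = 0.000133). In the activin, inhibin and BMP list 2 of 17 were higher and 7 lower, and in the 24-library fit Bmp7 was higher and Inhbb lower. Inha, the inhibin alpha subunit, measured 124 to 167 CPM in females and 44.2 to 87.9 CPM in males (1.27, SE 0.15). It therefore differed in the opposite direction to its partner Inhbb. Tgfbr3, which encodes betaglycan, the inhibin co-receptor, measured 32.9 to 50.5 against 66.6 to 126 CPM (-1.26, SE 0.14), and the BMP receptor gene Bmpr1a 50.6 to 67.7 against 73.5 to 116 CPM (-0.83, SE 0.11).

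A list of 4 genes taken from earlier sex differences in these same data, and so no independent evidence, held Ptpn5, Rxfp1, Rnase1 and Vwde. Rnase1, a secreted ribonuclease, measured 5.09 to 21.7 CPM in females and 0.308 to 1.15 CPM in males, and Vwde, a protein with a von Willebrand factor D domain, 10.2 to 13.8 against 1.55 to 4.24 CPM. Their log2 fold changes were 3.97 (SE 0.38) and 2.17 (SE 0.26). Of 15 immediate early genes 1 passed, Nr4a3 (-2.91, SE 0.94, adjusted p = 0.0398), in 3 of 12 fits without 1 library, its edgeR adjusted p reaching 0.202 without male Cre control replicate 1. Of 20 cell cycle genes 17 did not pass. The mitotic kinase gene Plk1 was higher (2.25, SE 0.42) at 1.23 to 6.49 against 0.424 to 1.6 CPM, and the replication genes Mcm4 (-0.85, SE 0.17) and Mcm6 (-0.74, SE 0.18) were lower.

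**Figure D3:**
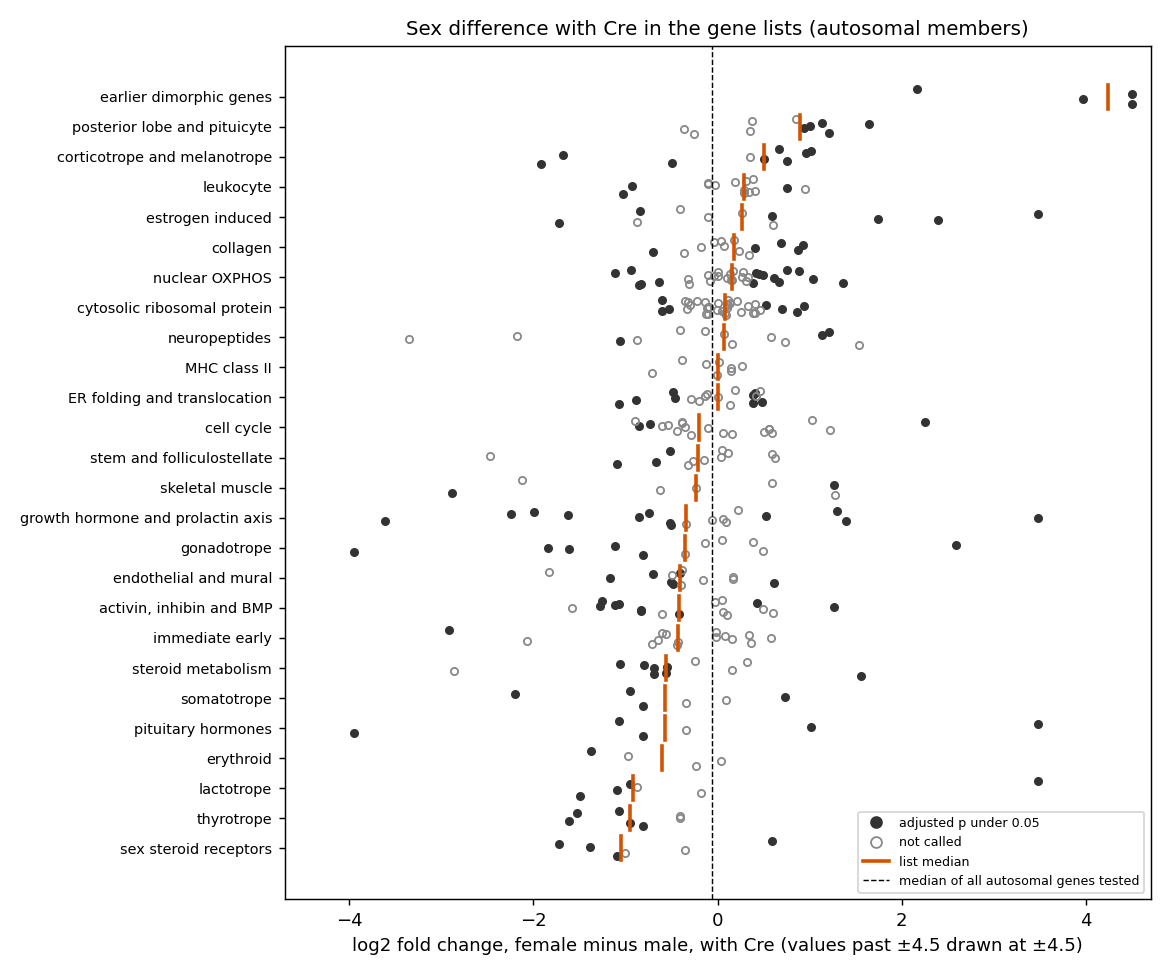
Log2 fold change, female minus male with Cre, of each autosomal member of the gene lists; filled points passed an adjusted p of 0.05, orange lines are list medians and the dashed line is the median of all autosomal genes, -0.06. The posterior lobe list lies to the right with 5 of 10 members called, and the thyrotrope list to the left with 5 of 7 called.

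The nuclear genes of energy metabolism and protein synthesis split in direction within each list. Of the 12 mitochondrially encoded genes of the list that were tested 11 were higher in females, with a median log2 fold change of 1.59. Their counts are part of the mitochondrial share given above, so this restates the difference in share and is no separate result. The nuclear genes of oxidative phosphorylation split instead: 10 of 31 were higher and 5 lower, with a median of 0.15. On plain library totals 5 were higher and 8 lower, and the median was -0.05. The members named here were taken for their small p and are all among the 5 lower genes, and none of the 10 higher genes is named. Sdha, a subunit of succinate dehydrogenase, measured 103 to 130 CPM in females and 208 to 280 CPM in males (-1.11, SE 0.11, adjusted p = 2.41e-07). Atp5b, the beta subunit of ATP synthase, measured 208 to 273 against 373 to 474 CPM (-0.83, SE 0.11), and Uqcrc2, of respiratory complex III, 35 to 56.5 against 76.3 to 113 CPM (-0.95, SE 0.13). These 3 did not overlap between the sexes. Of 35 cytosolic ribosomal protein genes 4 were higher, among them Rpl27 (0.86, SE 0.18), 3 were lower, among them Rpl3 (-0.60, SE 0.12) and Rps6 (-0.61, SE 0.13), and 28 did not pass, so that 7 of 35 were called against 31.7% of all genes. In the 24-library fit with the share no nuclear oxidative phosphorylation or ribosomal gene was called, and Rpl3 stood at 0.46 (SE 0.22) and Rps6 at 0.28 (SE 0.26). On plain library totals 3 ribosomal genes were higher and 9 lower. Of 17 genes for protein folding and translocation in the endoplasmic reticulum 4 were higher and 4 lower, and on plain library totals none was higher and 8 were lower. Canx, the chaperone calnexin, measured 178 to 219 against 353 to 471 CPM (-1.07, SE 0.11), while Dnajc3 was also lower (-0.89, SE 0.12) and the co-chaperone Dnajb11 higher (0.48, SE 0.12), the last not on plain library totals (0.25, adjusted p = 0.0865).

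The sex difference itself was then tested between the genotypes. Only Thy1 passed, 1 of 19425 genes (0.00515%), while 1294 had an unadjusted p under 0.05 and DESeq2 called 34. Thy1, a surface glycoprotein of neurons and T cells, measured 66.7 to 78.4 CPM in female and 95.6 to 108 CPM in male Cre control libraries, and 31.8 to 32.6 against 108 to 127 CPM in Egr1cKO. The log2 fold change was -0.53 in Cre control and -1.89 in Egr1cKO, a difference of -1.36 (SE 0.19, edgeR adjusted p = 0.0189). Without male Cre control replicate 1 the interaction called 18 genes. Thy1 passed in 5 of 12 fits without 1 library, and its edgeR adjusted p reached 0.146 without male Cre control replicate 3. Tshb passed in Egr1cKO (-1.69) and not in Cre control (-0.45), but the difference between them did not pass (-1.24, SE 0.27, edgeR adjusted p = 0.28).

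Against the libraries without Cre, the sex difference with Cre was tested in 1 model over all 24 libraries. The difference between these sex differences passed for 431 of 21184 autosomal genes (2.03%), 157 of them more positive and 274 more negative with Cre. The count was unstable: 21 of 24 fits without 1 library moved it by more than 1.5 times, from 66 without male Egr1cKO replicate 1 to 4358 without female wild type replicate 1. The other 3 were those without female Egr1cKO control replicate 1 (317), female Egr1cKO replicate 1 (544) and female Egr1cKO replicate 2 (292). Without Cre alone 164 of 19585 autosomal genes passed (0.837%), with 78 to 100 without male Egr1cKO control replicate 1 or 3, female Egr1cKO control replicate 1 or 2 or male wild type replicate 1. Over 18639 genes tested in both, the 6077 calls with Cre and the 163 without shared 123, or 2.02% and 75.5% of them, and 121 had the same sign. Aebp1 differed most clearly: its log2 fold change was 3.03 with Cre and 1.21 without (interaction 1.81, adjusted p = 0.000769). Prl differed too, at 3.48 with and 1.76 without Cre (interaction 1.72, adjusted p = 0.0188), and so did Scn11a (interaction 1.77, adjusted p = 0.0186), Greb1 (1.33, adjusted p = 0.0171) and Scg2 (-2.05, adjusted p = 0.0335). Esr1 was lower in females with Cre and measured -0.03 without (interaction -1.08, adjusted p = 0.0272), and Angpt1 measured -1.49 with and 0.27 without (interaction -1.77, adjusted p = 0.0133). Without Cre, Esr1 measured 66.6 CPM in female wild type library 1 and 175 and 169 CPM in libraries 2 and 3. The sex difference in mitochondrial share was 4.83 percentage points with Cre and 1.72 without, and these adjusted p-values do not hold it. With the share held, 59 genes passed the interaction instead of 431. Fshb measured -3.95 with and -4.02 without Cre, and Inhbb -1.12 and -1.09, with interactions of 0.06 and -0.03 that did not pass.

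Female wild type library 1 carried no Cre, and its mitochondrial share was 10.1% against 2.14% and 2.7% in the other female wild type libraries. Of the 2828 genes higher in females with Cre, 86.4% were higher in this library than in both others, and of the 3328 lower genes 89.9% were lower than in both, against 35.5% above and 49.4% below for the 13269 genes not called. Scg2 measured 178 CPM in it and 1349 and 1516 CPM in the others. Gata2 went against this pattern, at 47.8 CPM in it and 17.2 and 16.9 CPM in the others, and Aebp1 hardly varied, at 44 CPM against 43.8 and 42.7 CPM. In the female Egr1cKO control group library 2 had a share of 6.87% against 3.50% and 4.33%, and there the figures were 41.1% and 46.6%, with 31.3% and 40.0% for uncalled genes.

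With the mitochondrial share as a covariate among the 12 libraries, 6 autosomal genes passed: Crhbp, Ptpn5, Scn11a, Aebp1, Gm29374 and Scg2. The predicted gene Gm29374 stood outside the rule for naming genes and was named after its value was seen. With it the median SE of the 6156 called genes went from 0.15 to 0.47, while their median absolute log2 fold change went from 0.73 to 0.51 and 5163 kept their sign. A fit over all 24 libraries used the variation of the share within groups, which was largest in female wild type. There library 1 stood at 10.1% against 2.14% and 2.7%, and the fit was not repeated without it. It includes the libraries without Cre, where the shares of the sexes overlapped. With the covariate it called 366 genes, 185 higher and 181 lower in females with Cre. Of these, 255 were also called without it with the same sign, and 4253 of the 6156 kept their sign. In this fit Prl stood at 3.57 (SE 0.39), Fshb at -4.32 (SE 0.60), Aebp1 at 3.0 (SE 0.26), Serpine2 at -2.68 (SE 0.28), Gata2 at -2.31 (SE 0.22), Greb1 at 1.84 (SE 0.24) and Scg2 at -1.60 (SE 0.32), and all 7 were called by edgeR. Esr1 at -0.40 (SE 0.18), Ctnnb1 at -0.14 (SE 0.28), Morf4l1 at -0.08 (SE 0.20), Canx at -0.08 (SE 0.19), Sdha at -0.13 (SE 0.16) and Pomc at 0.58 (SE 0.72) were not, and Gnrhr stood at 0.28 (SE 0.40), the other side of 0.

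**Figure D4:**
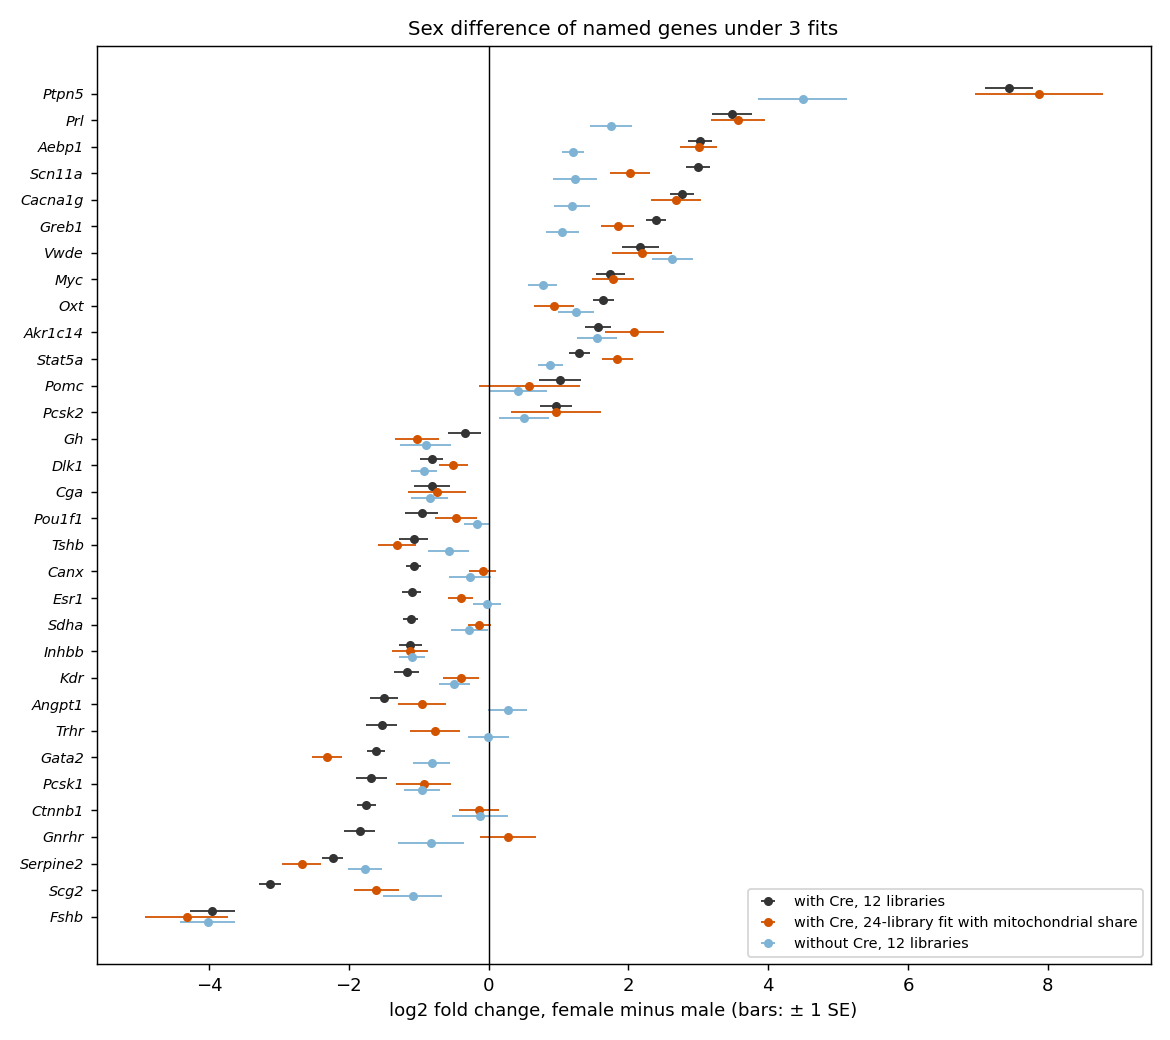
Log2 fold change, female minus male, of 32 named genes with bars of ± 1 SE, in the 12 libraries with Cre (black), in the 24-library fit that holds the mitochondrial share (orange) and in the 12 libraries without Cre (blue). Prl, Aebp1, Fshb and Serpine2 lie far from 0 in all 3 fits, while Ctnnb1, Canx and Sdha lie near 0 in all but the first and Gnrhr crosses 0 in the second. For Ctnnb1, Canx and Sdha the value without Cre averages unlike groups. In Egr1cKO control every female library lay below every male one. In wild type, female libraries 2 and 3 lay above every male library and female library 1 below every male one.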

How the data were processed

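Bulk RNA-seq of mouse pituitary was analysed from 1 table of raw counts per gene that the authors deposited, with 35191 genes in 24 libraries, of which the 12 with Cre entered the main fits. Reads were trimmed with Trim Galore 3.8.2 and aligned with STAR 2.7.9 to GRCm38, per the submitters' processing notes; the counting tool is not given in the sources used here. Libraries were not stranded, per the labels' protocols, so overlapping genes cannot be separated. Columns were matched to samples by the sample number in their titles, and replicate numbers follow accession order and pair nothing.

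Genes were filtered with filterByExpr, scaled by TMM and tested with the robust quasi-likelihood test of edgeR 4.0.16 (R 4.3.3), sex plus genotype as a block, two-sided, with Benjamini-Hochberg adjustment over all genes tested, autosomal or not. Every adjusted p is from edgeR unless DESeq2 1.42.0 is named. The scripts were tested on simulated data. Interactions used 4 or 8 group means. Named genes were protein-coding, called, at 1 CPM or more in the higher sex and without overlap: the 10 largest differences and the 5 smallest p in each direction. Hormone genes and up to 4 members of each list were added. Members and lists were chosen with earlier results of these data known. Alternatives were other scalings and filters, covariates, DESeq2 and leaving out each library. Not analysed here were Mc2r, Lhb, Zfy1 and Usp9y.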

Additional observations from a re-analysis of the deposited data

Results flagged for a closer look

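The sex difference of 1 gene differed between Cre control and Egr1cKO, and that of 10 others is given here because it differed between libraries with and without Cre, the 5 smallest p in each direction. Each difference was tested by an interaction term in edgeR. For Thy1 the term between genotypes was -1.36 (SE 0.19, adjusted p = 0.0189), and it was lower in females in all 4 genotypes.

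More positive with Cre were Aebp1 at 1.81, Slc18a2, the vesicular monoamine transporter, at 1.99 (SE 0.34, adjusted p = 0.00701), the interferon-induced GTPase gene Iigp1 at 1.94 (SE 0.30, adjusted p = 0.00396), the cytokine gene Mif at 1.41 (SE 0.24, adjusted p = 0.00869) and the protein kinase C delta gene Prkcd at 1.13 (SE 0.20, adjusted p = 0.011). Iigp1 measured 37.8 to 69.1 CPM in females and 8.75 to 14 CPM in males with Cre, and 7.67 to 19.7 and 9.79 to 21.3 CPM without. The sexes thus separated with Cre and overlapped without it.

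More negative with Cre were Cntnap4 at -6.14, Gpr139 at -6.39, the dynein intermediate chain gene Dync1i1 at -1.86 (SE 0.31, adjusted p = 0.00701), Hepacam2 at -1.44 (SE 0.22, adjusted p = 0.0034) and Cadps2, a gene of dense-core vesicle release, at -1.34 (SE 0.23, adjusted p = 0.00816). Cntnap4 and Gpr139 were near 0 in females with Cre, so the size of their terms depends on the prior count. Cadps2 had log2 fold changes of -0.51 with and 0.82 without Cre. Hepacam2 likewise had values of opposite sign, -0.91 with and 0.53 without. These 10, chosen for their small p, kept their calls in all 240 fits without 1 library. With the mitochondrial share held, 9 of the 10 kept their call and 1 lost it.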

How the results depend on the processing

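With the mitochondrial share held, 6 genes were called with Cre, 7 in Cre control and 15 in Egr1cKO, and 196 for sex by genotype, 59 for sex by Cre and 394 without Cre. Holding genes detected left 351 calls with Cre, and 24 libraries with the share 366. DESeq2 gave 34 calls for sex by genotype, 1317 for sex by Cre and 480 without Cre. Leaving out 1 library gave 5019 to 6173 calls with Cre, 1427 to 3085 in Cre control, 2346 to 4354 in Egr1cKO, 0 to 18 for sex by genotype, 66 to 4358 for sex by Cre and 78 to 174 without Cre, and a share difference of 4.58 to 5.0 percentage points. DESeq2, RLE scaling, no count filter, a minimum of 10 CPM, no genotype term, removal of mitochondrial genes and all 24 libraries without a covariate kept the count with Cre within 1.5 times.

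Of 103 named genes none changed sign under RLE or plain library totals. Holding the share among 12 libraries turned Gh to 0.69, Pomc to -0.85, Dlk1 to 0.50, Angpt1 to 0.012, Pcsk2 to -0.42, Tbx19 to -0.029, Avp to -0.36, Aldh1a2 to 0.059, Aldoc to 0.063, Plvap to 0.50 and Mcm6 to 0.30. Holding genes detected turned Plvap to 0.37. The 24-library fit with the share, chosen after seeing the data as were the plain totals, turned Gnrhr to 0.28, Dio2 to 0.34, Avp to -0.20, Atp5b to 0.060, Hspa5 to 0.36, Rpl3 to 0.46, Adgre1 to 1.02, Sox9 to 0.71, Egfl7 to -0.030, Rgs5 to 0.19, Mcm6 to 0.11, Hsd17b12 to 0.15, Ckm to 4.0, Rps6 to 0.28 and Dnajc3 to 0.17. The cause was not tested. No paired analysis was possible because the labels give no replicate numbers shared between groups.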
